A study of Mus musculus with 2 samples.

Results

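Genes of the T cell receptor complex and of cytotoxic cells were followed in whole skin of female B6/129 mice, measured with Xenium, which images probes on RNA in a thin slice of tissue and records the position and gene of each molecule. The 7 genes, of 480 on the panel, are Cd3d, Cd3e, Cd3g, Lck, Cd8a, Prf1 and Ctsw. They were chosen by name, and every transcript of theirs with a quality score of at least 20 was counted, inside and outside cells. All 7 were detected in both sections. There were 2 sections of fixed, paraffin-embedded skin, 1 labelled WT control and 1 labelled Utx-cKO. In the Utx-cKO line Krt14-Cre deletes Kdm6a, also called Utx, a histone demethylase gene, where keratin 14 is expressed, so T cells themselves are not the cells that the Cre targets. No treatment was given, per the labels, and neither age nor number of animals is stated in what was used here. Since each group is 1 section, no difference could be tested. The intervals are exact 95% intervals that cover counting error only and leave out differences between animals, and differences are called by size alone, at 1.5-fold or more.

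Cd3d, Cd3e and Cd3g encode the delta, epsilon and gamma chains of CD3, the signalling part of every T cell receptor. Lck is the kinase that phosphorylates these chains when the receptor binds its antigen. CD8 alpha, from Cd8a, is a co-receptor for class I molecules, found on cytotoxic T cells and on some dendritic cells. Prf1 encodes perforin, the pore-forming protein of cytotoxic granules, and Ctsw encodes cathepsin W, a protease of cytotoxic lymphocytes. Mouse epidermis is known for a resident population of T cells with gamma delta receptors that sit among the keratinocytes, while the dermis holds further T cells of several kinds.

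The Cd3 genes lie beside each other on chromosome 9 (GRCm38.p6), with Cd3g at 44969572-44980431 on the minus strand, Cd3d at 44981769-44987052 on the plus strand and Cd3e at 44998735-45009663 on the minus strand. The starts of Cd3g and Cd3d are 1337 bases apart and face away from each other. Their upstream sequences are shown because, of these neighbours, Cd3e and Cd3g were over 1.5-fold lower in keratinocytes of the Utx-cKO section. Cd3d was lower within 1.5-fold when scaled to the keratinocytes' transcripts, but past 1.5-fold as mean count per cell (log2 ratio -0.74). The windows come from RefSeq, run 5′ to 3′ on the strand of the gene, and end at the base before its start. Capitals mark matches to 4 motifs of lymphocyte factors, searched on both strands. The motif for RUNX factors was TGTGGT, that for ETS factors was AGGAAG, that for GATA factors was AGATAA, and the E-box was CAGCTG.

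Cd3d, chr9:44981536-44981768, plus strand: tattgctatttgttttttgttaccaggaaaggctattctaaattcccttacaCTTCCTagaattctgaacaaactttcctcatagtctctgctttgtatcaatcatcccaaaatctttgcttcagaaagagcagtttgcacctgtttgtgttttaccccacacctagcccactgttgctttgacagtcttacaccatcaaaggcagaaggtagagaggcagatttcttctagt

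Cd3e, chr9:45009664-45009861, minus strand: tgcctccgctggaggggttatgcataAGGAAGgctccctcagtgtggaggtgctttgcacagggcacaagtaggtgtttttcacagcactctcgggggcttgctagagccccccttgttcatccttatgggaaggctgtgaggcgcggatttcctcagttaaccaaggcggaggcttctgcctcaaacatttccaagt

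Cd3g, chr9:44980432-44980681, minus strand: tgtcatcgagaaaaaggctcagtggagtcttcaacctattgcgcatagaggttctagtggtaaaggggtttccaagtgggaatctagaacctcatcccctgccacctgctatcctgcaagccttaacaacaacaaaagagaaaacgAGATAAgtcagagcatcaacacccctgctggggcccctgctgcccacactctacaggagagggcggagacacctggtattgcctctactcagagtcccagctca

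The Cd3d and Cd3e windows each held 1 ETS match, 181 and 172 bases before the start, and the Cd3g window held 1 GATA match, 104 bases before it. Of 27025 promoter windows, 27.2% at the length used for Cd3d and 23.3% at that for Cd3e held an ETS match, and 10.3% at that for Cd3g held a GATA match. The matches are a description of these letters. Of the 7 genes, 6 were in the promoter table. Lck lies on chromosome 4 (129548344-129573641), Cd8a on chromosome 6 (71373427-71379171), Prf1 on chromosome 10 (61297751-61304684) and Ctsw on chromosome 19 (5465043-5468628).

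There were 40371 segmented cells with 3540184 gene transcripts in WT, and 52308 with 2875112 in Utx-cKO. Cells of at least 20 transcripts had a median of 62 and 48. The tissue lay in 4 strips per section. Nothing used here ties a strip to an animal or a body site, so strips are description and not replicates. Of 20 negative control probes, the highest had 128 transcripts in WT and 207 in Utx-cKO, while the lowest of the 7 genes, Prf1, had 467 and 367. Kdm6a transcripts were at 2291 and 2121 CPM (counts per 1000000 gene transcripts), a log2 ratio of Utx-cKO over WT of -0.11 (-0.16 to -0.06), and in keratinocytes at 2990.2 and 2645 CPM (-0.18, -0.26 to -0.09). The position of the Kdm6a probes relative to the deletion is unknown here, so this level does not check it.

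Over whole sections the CD3 chains did not move as a group, and Cd8a was the member that differed most. Cd3e had 465 CPM in WT and 418 CPM in Utx-cKO (1645 and 1201 transcripts), a log2 ratio of -0.15 (-0.26 to -0.05). Cd3g had 353 and 294 CPM (-0.26, -0.39 to -0.13), and Cd3d had 144 and 195 CPM (0.44, 0.26 to 0.61). All 3 chains stayed within 1.5-fold, and Cd3g turned to 0.04 at a quality score of at least 30. Lck had 311 and 423 CPM (0.44, 0.32 to 0.56), Ctsw 351 and 428 CPM (0.29, 0.17 to 0.40), and Prf1 132 and 128 CPM (-0.05, -0.25 to 0.15). Cd8a had 151 and 282 CPM (0.90, 0.74 to 1.06), 1 of the 7 genes past 1.5-fold higher. Of 475 genes compared, 24.4% were higher by that much and 3.16% lower, and their median log2 ratio was 0.22, beside 0.29 over the 7 genes. Counted per segmented cell, Cd3d (-0.24), Lck (-0.23) and Ctsw (-0.39) turned lower in Utx-cKO, and Cd3e (-0.83), Cd3g (-0.94) and Prf1 (-0.72) were past 1.5-fold lower. For each of the 7 genes the strips of the 2 sections overlapped, where 5.26% of genes had every Utx-cKO strip above and 0.211% every one below. In such sums, fewer cells of a type and less RNA per cell cannot be told apart.

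Transcripts of the 7 genes lay in cells more often than the average transcript. Between 89.2% (Lck) and 97.8% (Ctsw) were assigned to a cell in WT, and between 90.6% (Lck) and 97.7% (Ctsw) in Utx-cKO, against 74.7% and 84.9% over all genes. Gene by gene this was not a trait of Lck, which ranked 241 in WT and 300 in Utx-cKO among the 480 genes. Ctsw ranked 17 and 37, and the other members 43 to 155 in WT and 53 to 123 in Utx-cKO. Many fell within the outlines of keratinocytes, taken as cells with at least 5 transcripts of Krt5, Krt15 and Col17a1 together, of which there were 9738 in WT and 9400 in Utx-cKO. These outlines held 44.7% of Cd3e, 44.2% of Cd3g and 39.4% of Prf1 transcripts in WT, against 27.6%, 22.3% and 20.7% in Utx-cKO. All genes had 24.8% and 24.5% of their transcripts there. Within them, 61.9% (WT) and 71.1% (Utx-cKO) of Cd3e and 72.7% and 85.0% of Ctsw transcripts lay over the nucleus. Of the keratinocyte genes, Krt5 had 49.5% and 49.6%, Krt15 had 49.7% and 49.4%, and Col17a1 had 58.4% in each section. The WT interval of Cd3e (58.3 to 65.4) contained the Col17a1 share. Whether a transcript in such an outline belongs to the keratinocyte or to a T cell over or beside it was not tested.

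The genes differed in how their level followed the distance to the nearest keratinocyte centre. In WT, Cd3e was at 837 CPM in keratinocytes, 901 CPM up to 10 µm from one, 504 CPM from 10 to 20 µm, 535 CPM from 20 to 50 µm, 288 CPM from 50 to 100 µm and 93.0 CPM beyond. Cd3g had a like course, from 629 CPM in keratinocytes to 76.1 CPM beyond 100 µm. Both were lowest farthest out. Prf1 was highest in the first 2 zones, at 209.6 CPM (180.4 to 242) in keratinocytes and 269.6 CPM (218 to 329) up to 10 µm, and was at 123 CPM from 10 to 20 µm and 69.4 CPM beyond 100 µm. Lck and Cd8a had their highest levels from 20 to 50 µm, at 522 CPM (454 to 598) and 261 CPM (214 to 316), against 335 and 158 CPM in keratinocytes, although the zone from 10 to 20 µm did not differ from that beyond counting error (489 and 254 CPM). Ctsw was highest up to 10 µm (609 CPM) and from 10 to 20 µm (578 CPM).

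In WT only Cd3g was highest in the keratinocyte zone, at 629 CPM (577 to 684) against 592 CPM (515 to 678) up to 10 µm. In Utx-cKO none of the 7 genes was highest in that zone. Cd3e had 472 CPM (422 to 525) there, 648 CPM (572 to 731) up to 10 µm and 589 CPM from 20 to 50 µm. Cd3g had 268 CPM (232 to 310) in keratinocytes and 429 CPM (368 to 498) up to 10 µm. Ctsw had 378 CPM (334 to 426) and 626 CPM (551 to 707) in these 2 zones. Cd8a had 136 CPM (110 to 167) and 395 CPM (336 to 461), and was lowest in keratinocytes. Prf1 had 108 CPM in keratinocytes, 169 CPM up to 10 µm and 118 CPM beyond 100 µm. Lck (698 CPM), Cd8a (501 CPM) and Cd3d (346 CPM) were highest from 20 to 50 µm. Beyond 100 µm all 7 genes were over 1.5-fold higher in Utx-cKO than in WT, with log2 ratios from 0.77 (Prf1) to 1.16 (Lck), where 45.9% of 453 genes were, 1.77% were lower, and the median was 0.50.

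**Figure D1:**
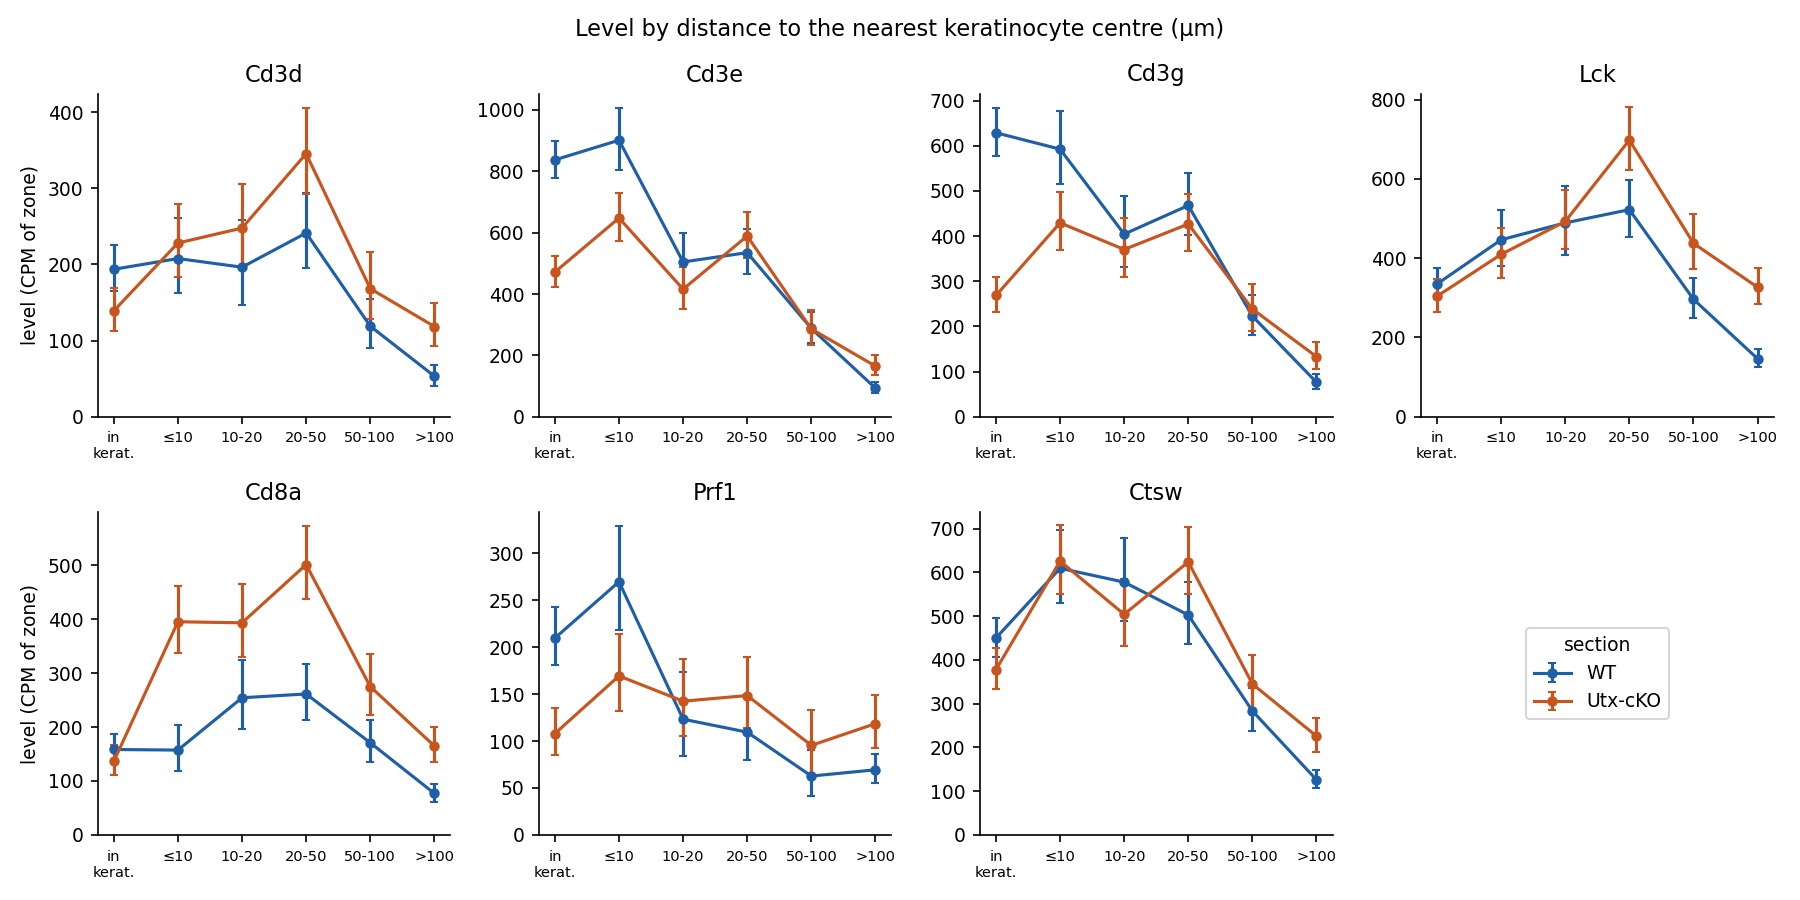
Level of each of the 7 genes, in CPM of all gene transcripts of the zone, by distance from the transcript to the nearest keratinocyte centre in µm, for the WT and Utx-cKO sections. Bars are exact 95% Poisson intervals for counting error. Cd3e, Cd3g and Prf1 were highest in or next to keratinocytes in WT, while Lck and Cd8a were highest from 20 to 50 µm.

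Set as near (in a keratinocyte or within 20 µm of one) over far, the Cd3 genes together had a log2 ratio of 1.61 (1.51 to 1.72) in WT and 0.42 (0.30 to 0.53) in Utx-cKO. The near zones held 69.0% and 58.1% of Cd3 transcripts, and 42.2% and 50.9% of all transcripts. In WT, 6 of the 7 genes were over 1.5-fold higher near, where 35.4% of 458 genes were and 31.7% were lower near, led by Cd3e (1.83), Cd3g (1.64) and Prf1 (1.46), with Cd8a lowest (0.38). In Utx-cKO 1 of 7 was, Cd3e (0.64), where 26.1% of 468 genes were and 34.6% were lower near, and Lck (-0.31) had a lower level near than far. Over transcripts in cells alone, the Cd3 genes had 1.00 in WT and 0.08 in Utx-cKO, and Cd8a in WT turned to -0.21. Fewer genes then passed 1.5-fold. In WT 3 of 7 were higher near, since Cd3d (0.32), Lck (0.15) and Ctsw (0.46) no longer passed, where 27.6% of 457 genes were higher and 40.3% lower. In Utx-cKO 0 of 7 were, with Cd3e at 0.30, where 21% of 466 genes were higher and 45.1% lower. The share of all transcripts assigned to cells differed between the sections (74.7% and 84.9%), and its part in these ratios was not tested further.

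The 3 chains did not keep 1 proportion across the tissue. Cd3d made up 11.7% (10.1 to 13.4, Clopper-Pearson) of Cd3 transcripts in WT keratinocytes, 17.8% from 10 to 20 µm and 24.0% (18.9 to 29.6) beyond 100 µm. In Utx-cKO these shares were 15.8% (13.0 to 19.0), 24.0% and 28.5% (23.1 to 34.4). The share was lower in keratinocytes than beyond 100 µm in both sections, and lower in WT than in Utx-cKO in each zone. Background signal, which was higher in Utx-cKO by the median control probe (6 and 12 transcripts), moves with this, and its part was not tested.

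In keratinocytes, Cd3e, Cd3g and Prf1 were lower in the Utx-cKO section, and none of the 7 genes was 1.5-fold higher. Cd3g, the gamma chain, had 635, 531, 570.2 and 775 CPM in the keratinocytes of the WT strips and 262, 326, 220.2 and 352 CPM in those of the Utx-cKO strips. Over the sections that was 629 and 268 CPM (552 and 189 transcripts), 2.34 times lower (log2 ratio -1.23, -1.47 to -0.99). The highest Utx-cKO strip was under the lowest WT one, though their counting intervals overlapped (258 to 470 and 389 to 709 CPM). Cd3e, the epsilon chain, had 877, 635, 827 and 896 CPM in the WT strips and 407, 447, 513 and 483 CPM in the Utx-cKO strips. It was 1.78 times lower (-0.83, -1.02 to -0.64), again with every Utx-cKO strip under every WT strip. The intervals of the nearest strips overlapped here too (435.5 to 600 and 479 to 827 CPM). Prf1 had 146, 208, 226 and 262 CPM in the WT strips and 129, 48.4, 122 and 84.3 CPM in the Utx-cKO strips. It was 1.94 times lower (-0.96, -1.36 to -0.56), from 184 and 76 transcripts, with the highest Utx-cKO strip close under the lowest WT strip.

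Cd3d, the delta chain, had 194 and 139 CPM in keratinocytes (-0.48, -0.85 to -0.11), with 184 to 201 CPM over the WT strips and 76.6 to 168 CPM over the Utx-cKO strips. The strips did not overlap, but the ratio was within 1.5-fold, and without Utx-cKO strip 3 it was past it (-0.72). The ratio was also past 1.5-fold as mean count per cell (-0.74) and centred on the median gene (-0.61). Lck had 335 and 304 CPM (-0.14, -0.40 to 0.12), Ctsw 449.9 and 378 CPM (-0.25, -0.48 to -0.02) and Cd8a 158 and 136 CPM (-0.22, -0.61 to 0.17), and the strips of these 3 genes overlapped. In all, 3 of the 7 genes were at least 1.5-fold lower and 0 higher, where 4.28% of 444 genes were lower and 12.8% higher. For 4 of the 7 the Utx-cKO strips were all under the WT strips, where 1.8% of genes had that order and 2.25% the opposite one. The median log2 ratio was -0.48 over the 7 genes and 0.14 over all genes compared. In other cells the levels of Cd3e (489 and 482 CPM, -0.02), Cd3g (373 and 358 CPM, -0.06) and Prf1 (149 and 159 CPM, 0.09) were close, and Cd8a was higher in Utx-cKO (207 and 396 CPM, 0.94), where 23.3% of 477 genes were 1.5-fold higher and 3.56% lower.

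**Figure D2:**
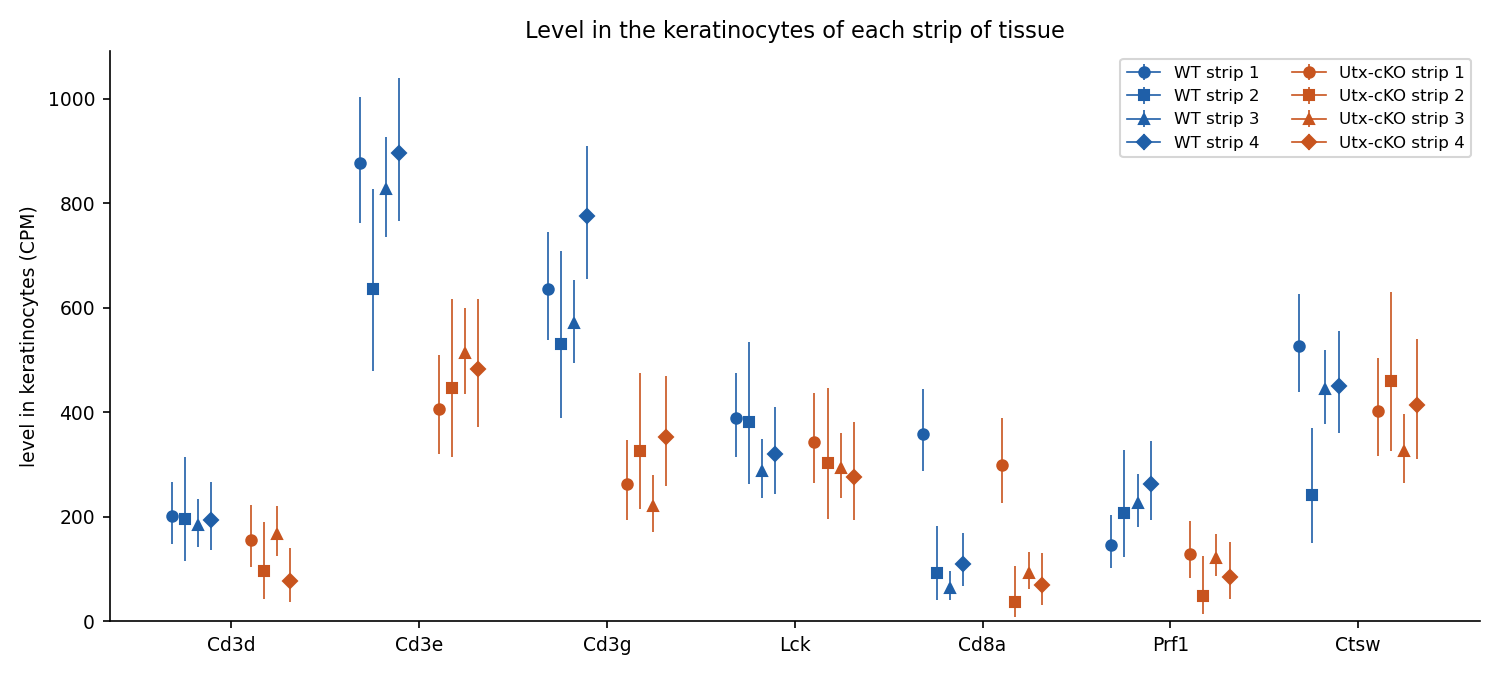
Level in the keratinocytes of each strip of tissue, in CPM of the keratinocytes' transcripts, for the 7 genes in the WT and Utx-cKO sections. Each mark is 1 strip, and bars are exact 95% Poisson intervals. The Utx-cKO strips of Cd3e (407 to 513 CPM) and Cd3g (220.2 to 352 CPM) lay below the WT strips (635 to 896 and 531 to 775 CPM), and Cd8a was highest in strip 1 of both sections.

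Part of the Cd3 transcripts was gathered in few cells. Of those in keratinocytes and in other cells, 52.8% and 37.7% lay in cells with at least 3 in WT. In Utx-cKO these shares were 36.0% and 20.5%. Cells with 1 Cd3 transcript held 32.5% and 45.7% in WT, and 50.7% and 62.2% in Utx-cKO. A cell of at least 20 transcripts with at least 3 Cd3 transcripts is called Cd3-rich. There were 324 such cells of 33263 in WT, 0.974% (0.871 to 1.09), and 148 of 37395 in Utx-cKO, 0.396% (0.335 to 0.465). Among keratinocytes they were 162 in WT, 1.68% (1.44 to 1.96), and 49 in Utx-cKO, 0.531% (0.393 to 0.702). The strips overlapped, with 1.93%, 0.604%, 2.03% and 1.63% in WT and 0.302%, 0.335%, 0.637% and 0.860% in Utx-cKO. Keratinocytes were deeper in WT, with medians of 78 and 65 transcripts. When every cell was cut to 20 random transcripts, the share of keratinocytes with any Cd3 transcript was 2.66% (2.35 to 3.00) in WT and 1.39% (1.16 to 1.65) in Utx-cKO, from 7.69% and 4.37% before. WT strips had 2.40% to 3.02% and Utx-cKO strips 1.28% to 1.45%, without overlap. Over all cells the thinned shares were closer, at 2.33% and 2.02% (5.31% and 4.19% before), and their strips overlapped.

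Cells rich in Slc16a3 and Cryab, a background population that should lack Cd3, held 0 Cd3-rich cells of 1079 in WT and 0 of 451 in Utx-cKO, which allows shares of up to 0.278% and 0.665% by a limit of 3 cells, and up to 0.341% and 0.815% by the exact interval. Any Cd3 transcript was found in 2.04% and 1.77% of them, at median depths of 152 and 101, and in 0.185% (0.0225 to 0.668) and 0.665% (0.137 to 1.93) after thinning. The thinned share in keratinocytes lay above this beyond counting error in WT, whereas in Utx-cKO the interval of the background, from 451 cells, contained it. To count without cell outlines, Cd3 transcripts within 5 µm of each other were linked, and groups of at least 3 were called foci, a rule chosen after the data were seen. There were 354 foci in WT and 177 in Utx-cKO. Those within 20 µm of a keratinocyte centre numbered 274 and 132, or 28.1 and 14.0 per 1000 keratinocytes. By strip these were 28.1, 18.9, 34.3 and 25.5 in WT and 13.0, 11.7, 16.3 and 13.2 in Utx-cKO, so the strips did not overlap. Foci were counted without thinning, keratinocytes were deeper in WT, and the part of depth in the foci was not tested.

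**Figure D3:**
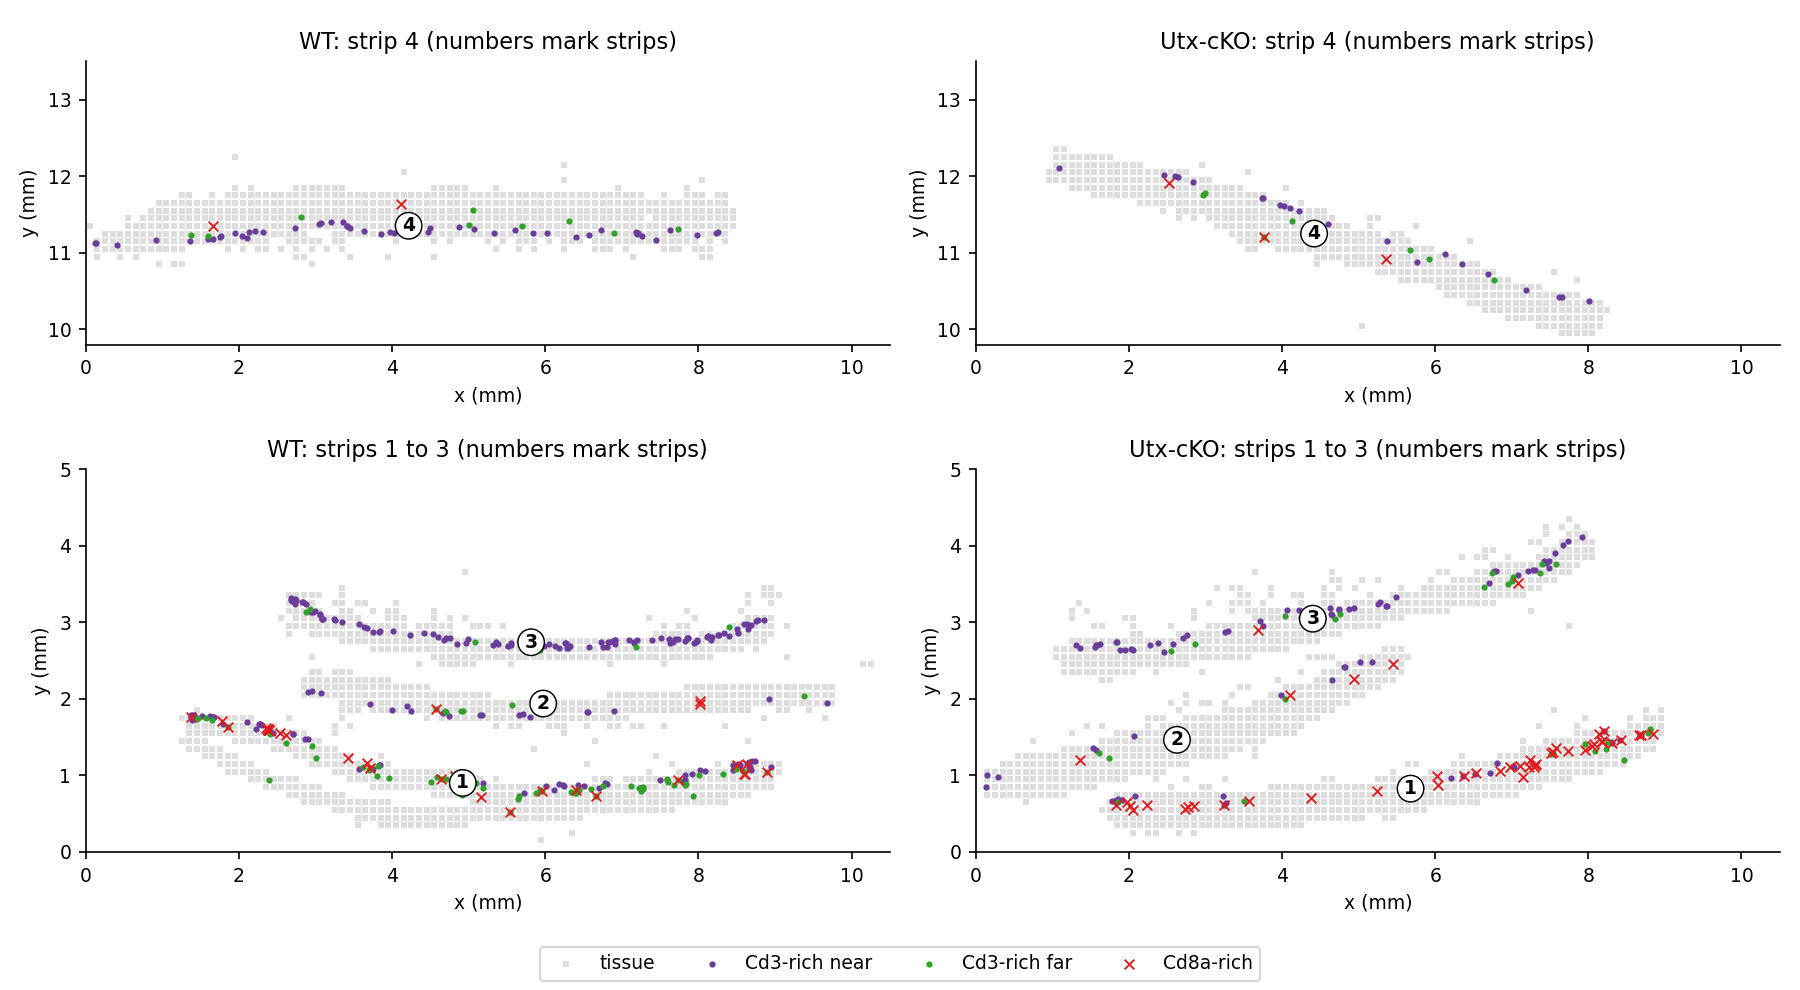
Positions of Cd3-rich cells near and far from keratinocytes and of Cd8a-rich cells (at least 3 Cd8a transcripts) on the tissue of the WT (left) and Utx-cKO (right) sections, both axes being distances in the section. Of the Cd8a-rich cells, 28 of 33 in WT and 42 of 51 in Utx-cKO lay in strip 1.

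Near keratinocytes, Lck, Ctsw and Prf1 were detected more often the more Cd3 a cell held. From no Cd3 transcript to 5 or more, median depth also rose, from 63 to 95 in WT and from 54 to 81 in Utx-cKO. The part of depth in these shares was not tested. Prf1 in WT was found in 0.603% of near cells with no Cd3 transcript, 4.55% with 1, 14.1% with 2, 28.0% with 3 to 4 and 50.5% (40.1 to 60.9) with 5 or more. In Utx-cKO the last share was 35.1% (20.2 to 52.5). Ctsw was in 63.2% (52.6 to 72.8) of the near WT cells with 5 or more, and in 67.6% (50.2 to 82.0) of those in Utx-cKO, and Lck in 45.3% and 51.4%. Cd8a differed from these, with 7.33% of WT near cells with 3 to 4 Cd3 transcripts and 2.11% (0.256 to 7.40) with 5 or more. In Utx-cKO it was in 18.9% (12.1 to 27.5) of near cells with 2 Cd3 transcripts and 5.41% (0.661 to 18.2) with 5 or more.

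Over all Cd3-rich cells, Lck was found in 38.0% in WT and 41.9% in Utx-cKO, and Ctsw in 45.4% and 48.6%. Prf1 was found in 28.4% (23.5 to 33.6) and 18.9% (13.0 to 26.2), and Cd8a in 9.57% and 6.76%. Cells with no Cd3 transcript had 1.61% and 1.76% for Lck, 1.59% and 1.58% for Ctsw, 0.648% and 0.645% for Prf1, and 0.787% and 1.02% for Cd8a. In the Slc16a3 and Cryab cells the 4 genes were found in 0.222% to 1.11% of cells, at the depths given above. Those background cells were deeper, so levels were compared as well. In WT, Cd8a stood at 113 CPM (100.4 to 128) in cells with no Cd3 and at 46.2 CPM (19.96 to 91.1) in the background cells, and in Utx-cKO at 204 CPM (186 to 224) against 77.7 CPM (21.2 to 199). Prf1 stood at 90.3 CPM (78.7 to 103) against 40.5 CPM (16.3 to 83.4) in WT, while the Utx-cKO section had 110 CPM (96.4 to 125) against 58.3 CPM (12.02 to 170.4). All 4 levels of Cd8a and Prf1 were higher than in the background cells. Their intervals were apart only for Cd8a in WT. For Lck and Ctsw they were apart in both sections. Lck had 222 CPM (204 to 242) against 40.5 CPM (16.3 to 83.4) in WT. In Utx-cKO it had 305 CPM (282 to 329) against 19.4 CPM (0.492 to 108). Ctsw had 259 CPM (239 to 280) against 52.0 CPM (23.8 to 98.7) in WT. In Utx-cKO it had 319 CPM (296 to 344) against 97.2 CPM (31.5 to 227). Read the other way, 47.3% of Prf1 transcripts in WT cells lay in a cell with Cd3, as did 45.0% of Ctsw, 41.5% of Cd8a and 39.96% of Lck. In Utx-cKO these shares were 21.0%, 34.3%, 29.4% and 26.9%, lower for each of the 4 genes. Cells were shallower in Utx-cKO (medians of 62 transcripts in WT and 48 in Utx-cKO), and fewer had any Cd3 (5.31% and 4.19%). The part of this in the shares was not tested.

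**Figure D4:**
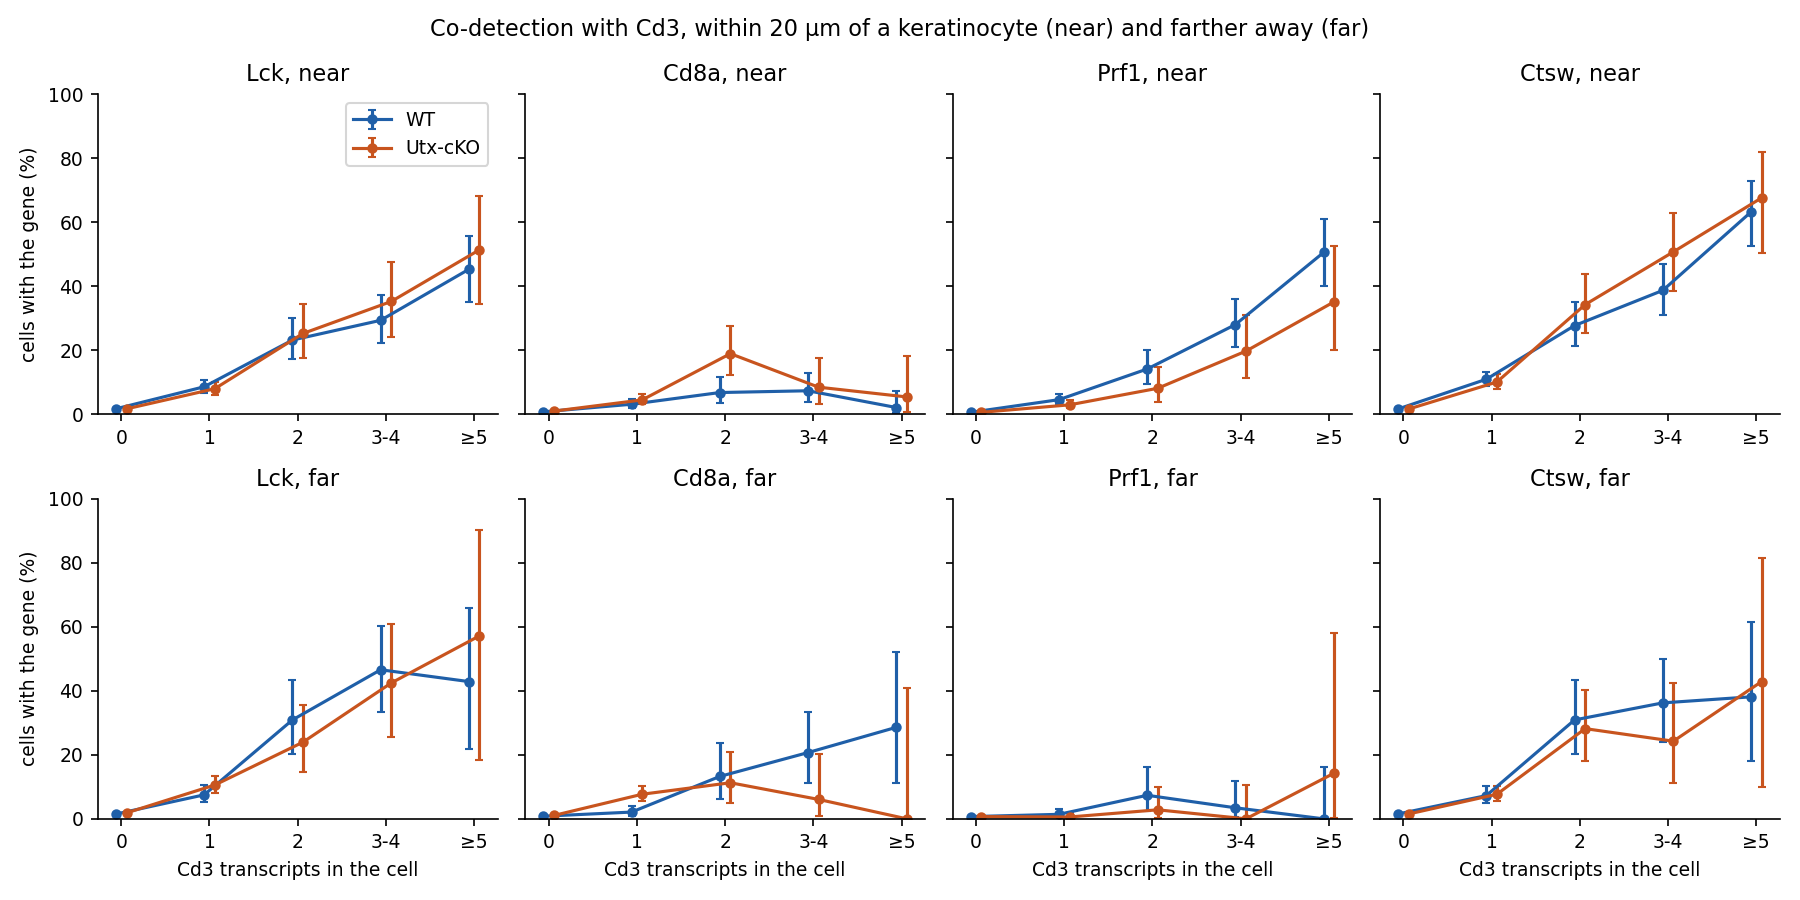
Share of cells with a transcript of Lck, Cd8a, Prf1 or Ctsw, in percent, by the number of Cd3 transcripts in the cell, near and far from keratinocytes, for the WT and Utx-cKO sections. Bars are exact 95% Clopper-Pearson intervals. Near keratinocytes Prf1 reached 50.5% of WT cells with 5 or more Cd3 transcripts, and far from them it was in 0 of 21 such cells.

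Cd3-rich cells near keratinocytes carried perforin transcripts far more often than those farther away, in both sections. In WT, 36.7% (30.7 to 43.1) of 245 near cells had Prf1, against 2.53% (0.308 to 8.85) of 79 far cells. In Utx-cKO it was 25% (17.2 to 34.3) of 108 near cells and 2.5% (0.063 to 13.2) of 40 far cells. The level was 4978 CPM near and 353 CPM far in WT (log2 ratio 3.82, 1.94 to 6.88) and 3819 and 373 CPM in Utx-cKO (3.35, 0.78 to 8.70), where the far values rest on 2 and 1 transcripts. The order also held within strip 1 of WT, with Prf1 in 21 of 69 near and 1 of 55 far cells, and over the other WT strips together, with 69 of 175 and 1 of 24. Ctsw did not differ in level between near and far beyond counting error (-0.25, -0.68 to 0.19 in WT and 0.41, -0.21 to 1.08 in Utx-cKO).

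Several other T cell genes had higher levels in far Cd3-rich cells. Thy1, a surface protein of T cells and of other skin cells, was at 15759 CPM near and 39859 CPM far in WT, and at 20624 and 29489 CPM in Utx-cKO. In cells with no Cd3 transcript Thy1 was also higher far, at 3600 and 7843 CPM in WT and 3363 and 6999 CPM in Utx-cKO. Over such cells of the same place, Thy1 was 4.38-fold higher near and 5.08-fold far in WT, and 6.13-fold and 4.21-fold in Utx-cKO. By that measure Lck was 21.2-fold and 43.7-fold higher in WT, and 25.7-fold and 30.6-fold in Utx-cKO. Il2ra, the high-affinity receptor chain for interleukin 2, had 706 and 3175 CPM in WT and 982 and 4106 CPM in Utx-cKO. Lck had 4782 and 9524 CPM in WT and 6766 and 11198 CPM in Utx-cKO. Of the genes that chose the cells, Cd3d had 4273 and 8466 CPM in WT and 6766 and 11945 CPM in Utx-cKO, while Cd3e was nearly level in WT (23285 and 22928 CPM). Cd8a in WT was in 5.31% of near and 22.8% of far cells, at 1215 and 10053 CPM, 8.27 times higher far. Strip 1 held 69 of the 245 near and 55 of the 79 far cells, and within it Cd8a was in 13.0% of near and 23.6% of far cells, at 3223 and 10862 CPM. Over strips 2 to 4 it was in 2.29% of 175 near and 20.8% of 24 far cells, at 287 and 7446 CPM, from 5 and 10 transcripts. The level was higher far in both, by a different factor. In Utx-cKO it was in 7.41% and 5% of cells, and a difference was not detectable at this depth (log2 ratio near over far 0.55, -1.03 to 2.56).

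Transcripts of other cell types moved with the place as well. The 7 keratinocyte markers on the panel summed to 136613 CPM in near and 4938 CPM in far Cd3-rich cells in WT, and to 99302 and 7465 CPM in Utx-cKO. The 4 macrophage markers had 549 and 11111 CPM in WT and 655 and 9332 CPM in Utx-cKO, and the 2 fibroblast markers 2195 and 12169 CPM in WT and 1091 and 10078 CPM in Utx-cKO. Cd79a, the 1 B cell marker on the panel, was at 0 in all of them, and both mast cell markers were at 0 in far cells. Far cells also had larger outlines, with a median of 137 against 62.1 µm2 in WT and 114 against 61.7 µm2 in Utx-cKO. The part of neighbouring cells in the near and far levels was not tested.

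**Figure D5:**
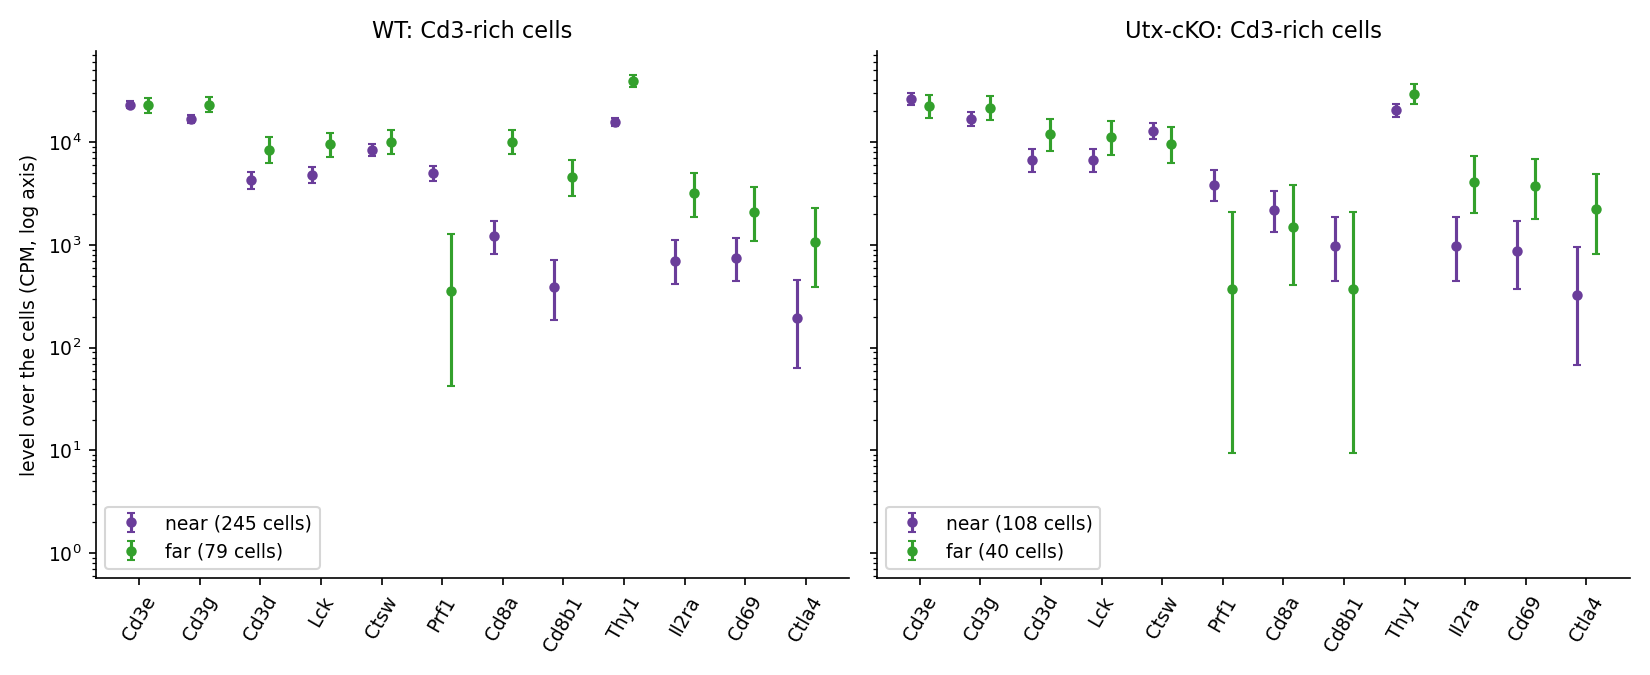
Level in Cd3-rich cells near and far from keratinocytes, in CPM on a log axis, for T cell and cytotoxic genes in the WT (left) and Utx-cKO (right) sections. Bars are exact 95% Poisson intervals. Prf1 was lower in far cells of both sections (353 and 373 CPM), and Thy1 and Il2ra were higher. Thy1 was also higher far in cells with no Cd3, which are not shown.

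Cd8a was concentrated in strip 1 of each section. That strip held 54.1% of Cd8a transcripts in WT and 62.8% in Utx-cKO, but 35.0% and 24.5% of all transcripts. Whole-strip levels were 234, 155, 92.3 and 108 CPM in WT and 724, 137, 127 and 165 CPM in Utx-cKO. The higher Cd8a of the Utx-cKO section rested on its strip 1, since the log2 ratio was -0.12 without it and 1.40 without WT strip 1. With strip 1 of both left out, a choice made after these values were seen, it was 0.38 (0.13 to 0.63). Without Utx-cKO strip 3 it was 1.35. Whether the strips numbered 1 come from corresponding skin is unknown here.

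Cd8a-rich cells, with at least 3 Cd8a transcripts, numbered 33 in WT and 51 in Utx-cKO, 28 and 42 of them in strip 1. Cd8b1, the beta chain that pairs with CD8 alpha on conventional cytotoxic T cells, was found in 19 and 21 of them. A Cd3 transcript was found in 27 and 31, which is 81.8% and 60.8%. Of 2 genes of the dendritic cells that can carry CD8 alpha, Clec9a had 1 transcript in each set and Wdfy4 had 7 in WT (2234 CPM) and 4 in Utx-cKO (1267 CPM). Their part in the Cd8a-rich cells was not tested. Mki67, a marker of dividing cells, was found in 7 and 15. Within Cd3-rich cells Cd8a had 2822 and 2027 CPM (log2 ratio -0.48, -1.19 to 0.19), which moved to 1.34 without WT strip 1, to -2.34 without Utx-cKO strip 1 and to 0.31 without Utx-cKO strip 3.

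Within Cd3-rich cells, Lck, Ctsw and Prf1 were within 1.5-fold between the sections. Lck had 5645 CPM in WT and 7768 CPM in Utx-cKO (0.46, 0.08 to 0.83), and Ctsw 8724 and 12159 CPM (0.48, 0.18 to 0.78). Prf1 had 4137 and 3039.8 CPM (-0.44, -1.02 to 0.10), with -0.81 without WT strip 1 and 0.00 without WT strip 3. The Cd3 genes chose these cells and are given as description, with Cd3d at 5035 and 7937 CPM, Cd3e at 23220.0 and 25585 CPM, and Cd3g at 18024 and 17985 CPM. By the size rule 9.09% of 187 genes were higher and 8.56% lower in these cells. Kdm6a had 3399.6 and 2702 CPM there (-0.33, -0.95 to 0.25).

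Other T cell and cytotoxic genes were taken from lists. Of 43 T cell genes listed, 14 were on the panel, and 7 of these were at least 1.5-fold higher over the whole Utx-cKO section and 0 lower (median log2 ratio 0.60), where 24.4% of all genes were higher and 3.16% lower (median 0.22). Beside Cd8a they were the cytokines Il17a (155 and 343 CPM, 1.14) and Ifng (107 and 199 CPM, 0.89), the inhibitory receptors Ctla4 (89.8 and 166 CPM, 0.88) and Pdcd1 (59.9 and 106 CPM, 0.82), Il2ra (199 and 335 CPM, 0.75) and Cd8b1 (91.0 and 149 CPM, 0.71). The highest control probe stood at 36.2 CPM in WT and 72.0 CPM in Utx-cKO, and the part of such background in these low levels was not tested. Il17a did not follow Cd3 in WT, with 128 CPM in Cd3-rich cells and 184 CPM in cells with no Cd3. In Utx-cKO these were 507 and 342 CPM, and the Cd3-rich values rest on 4 and 6 transcripts. Ifng, Ctla4, Pdcd1, Il2ra and Cd8b1 were higher in Cd3-rich cells than in cells with no Cd3 in both sections. In Cd3-rich cells of WT and Utx-cKO, Ifng had 14 and 5 transcripts, Ctla4 11 and 9, and Pdcd1 7 and 5. Il2ra had 36 and 20, and Cd8b1 36 and 10. For Ifng in Utx-cKO, the interval in Cd3-rich cells (137 to 985 CPM) contained the level in cells with no Cd3 (191 CPM). Of the 13 compared in keratinocytes, Cd3e and Cd3g were lower and Il17a was higher (138 and 259.9 CPM, 0.92), where 4.28% of all genes were lower and 12.8% higher, and the median was -0.12 beside 0.14 over all genes.

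Of 15 cytotoxic genes listed, 5 were on the panel, namely Prf1, Ctsw and the granzyme genes Gzma, Gzmb and Gzmk, whose proteases enter target cells with perforin. Over the whole section 2 were at least 1.5-fold higher in Utx-cKO, Gzmk (52.5 and 114 CPM, 1.12) and Gzmb (83.3 and 135 CPM, 0.70), and 0 lower, beside the 24.4% and 3.16% of all genes. In keratinocytes, of 4 compared, Gzmk was higher (0.66) and Prf1 lower, beside 12.8% and 4.28% of all genes. In Cd3-rich cells granzyme transcripts were rare. Gzma had 7 transcripts in the 324 WT cells and 4 in the 148 Utx-cKO cells, Gzmb had 6 and 11, and Gzmk had 1 and 2. In WT, Gzmk was at 32.1 CPM in these cells against 66.7 CPM in cells with no Cd3, and in Utx-cKO at 169 against 114 CPM. Gzma had 225 against 209 CPM in WT and 338 against 216 CPM in Utx-cKO. Gzmb had 192 against 85.3 CPM in WT and 929 against 114 CPM in Utx-cKO.

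The genes whose pattern was most like that of Cd3 were taken as those with the highest level in Cd3-rich cells over cells with no Cd3, by the smaller ratio of the 2 sections, among 109 genes with at least 100 counts in Cd3-rich cells. Ctsw stood first (33.7-fold in WT and 38.1-fold in Utx-cKO), before Prf1 (45.8 and 27.7), Lck (25.4 and 25.5) and Cd8a (24.9 and 9.93). By the size rule 17.2% of 442 genes were higher and 38% lower in Cd3-rich cells in WT, and 20.7% of 440 were higher and 31.4% lower in Utx-cKO. Among these 109 genes the other 4 of the set came first. With fewer counts, from 50 to 99 in Cd3-rich cells, 2 of 75 genes also had a smaller ratio above that of Cd8a. They were Blk, a kinase gene of the Src family (30.1 and 33.4), and Ltb, which encodes lymphotoxin beta (18.6 and 28.5), and Blk thus stood above Prf1 and Lck. Next among the 109 were Thy1 (3.61 and 4.66), Faah, which encodes the hydrolase of the lipid anandamide (3.43 and 2.43), and Id2, an inhibitor of helix-loop-helix factors (2.73 and 2.41). The lowest were the matrix genes Col6a2, Lum and Col5a2, with Igfbp5 and the lipid desaturase gene Scd1, at 2.26-fold to 4.06-fold lower. This order is a description over 2 sections.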

How the data were processed

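Xenium transcript and cell tables of 2 sections were used. The deposited counts are raw decoded transcripts, each with a quality score given in the authors' files, per the file headers. The software that drew the cell outlines was not given in the sources used here. Transcripts with a score of at least 20 were kept, and their sums equal the deposited transcript count of each cell. Counts were scaled to all gene transcripts (CPM). Genes compared needed 200 counts over both sections, 100 in keratinocytes and 50 in Cd3-rich cells. Strips are connected tissue of at least 1000 cells. Intervals are exact Poisson (CPM), conditional binomial (ratios) or Clopper-Pearson (shares). No doublet caller was run, and 2 cell identifiers occur in both sections. The ratio and interval code was tested on simulated data. Named genes are the 7 members, the panel genes of the T cell list, the 8 highest (1 of them is not reported here) and 5 lowest genes by likeness, and Kdm6a. The granzyme genes come from the cytotoxic list. Mki67, Clec9a, Wdfy4, Blk, Fyn, Ltb, Tyrobp and Fcer1g were chosen after their values were seen. The members and lists were chosen with earlier results of these data known. The alternatives tried, among them other minimums, thinning and leaving out each strip, are in the closing section. Python 3.11.15, numpy 2.4.6, scipy 1.17.1, pandas 2.3.3 and scikit-learn 1.9.0 were used.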

Additional observations from a re-analysis of the deposited data

How the results depend on the processing

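No paired analysis was possible because each group is 1 section. In keratinocytes Cd3e, Cd3g and Prf1 stayed at least 1.5-fold lower in Utx-cKO under the alternatives run, with log2 ratios no closer to 0 than -0.68 (Cd3e, over the nucleus only), -0.97 (Cd3g, quality 30) and -0.72 (Prf1, keratinocyte minimum 10). Depth limits the shares of cells with a transcript, which fell after thinning, and Cd8a depends on strip 1. The causes of the changes below were not tested.

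Whole-section log2 ratios centred on the median gene were 0.22 (Cd3d), -0.38 (Cd3e), -0.48 (Cd3g), 0.22 (Lck), 0.68 (Cd8a), -0.27 (Prf1) and 0.063 (Ctsw). Per cell they were, in that order, -0.24, -0.83, -0.94, -0.23, 0.23, -0.72 and -0.39, and per tissue area 0.13, -0.46, -0.57, 0.14, 0.59, -0.35 and -0.021. In cells only, Cd3e had -0.34, Cd3g -0.46, Lck 0.28 and Ctsw 0.098. At quality 30, Cd3g had 0.044 and Ctsw 0.15. In keratinocytes the mean count per cell gave -0.74 (Cd3d), -1.10 (Cd3e), -1.495 (Cd3g), -0.41 (Lck) and -0.52 (Ctsw). A keratinocyte minimum of 10 gave Cd8a -0.61.

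The near over far log2 ratio of the Cd3 genes in WT was 1.00 in cells only, 2.16 within 50 µm, 1.79 at quality 30 and 1.43 at a keratinocyte minimum of 10. In Utx-cKO it was 0.082 in cells only, 1.10 within 50 µm and 0.15 at a keratinocyte minimum of 10. The log2 ratio of the Cd3-rich share was -1.30 over all cells and -1.66 over keratinocytes. At a Cd3 minimum of 2 it was -0.95 over all cells, and by foci -1.003 over keratinocytes. For the share with any Cd3 it was -0.34 over all cells and -0.82 over keratinocytes in whole cells, and -0.21 and -0.94 after thinning, so the change from at least 3 to any Cd3 moved both ratios more than thinning did.

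Thinned shares of Cd3-rich cells were 13.0% (Lck), 3.40% (Cd8a), 8.95% (Prf1) and 16.4% (Ctsw) in WT, and 20.9% (Lck), 5.41% (Prf1) and 23.6% (Ctsw) in Utx-cKO. At a Cd3 minimum of 2, Lck, Prf1 and Ctsw had 32.5%, 21.4% and 38.1% in WT and 32.4%, 11.8% and 39.4% in Utx-cKO. At a minimum of 5 they had 44.8%, 41.4% and 58.6%, and 52.3%, 31.8% and 63.6%. Cd8a had 5.71% over the nucleus only in WT and 13.0% by foci in Utx-cKO, and its log2 ratio within Cd3-rich cells was 0.47 at a minimum of 2.

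Leaving out each strip in turn, whole-section log2 ratios ranged from 0.25 to 0.51 (Cd3d), -0.32 to -0.051 (Cd3e), -0.39 to -0.089 (Cd3g), 0.16 to 0.70 (Lck), -0.12 to 1.40 (Cd8a, reversed without Utx-cKO strip 1, and 0.38 without strip 1 of both), -0.21 to 0.073 (Prf1) and 0.052 to 0.50 (Ctsw). In keratinocytes they ranged from -0.72 to -0.34 (Cd3d), -0.93 to -0.76 (Cd3e), -1.33 to -1.04 (Cd3g), -0.27 to -0.051 (Lck), -1.03 to 0.72 (Cd8a), -1.11 to -0.85 (Prf1) and -0.32 to -0.11 (Ctsw). The Cd3-rich share ranged from -1.55 to -1.10 over all cells and -1.87 to -1.43 over keratinocytes. Within Cd3-rich cells the ranges were 0.22 to 0.83 (Lck), -2.34 to 1.34 (Cd8a), -0.81 to 0.0020 (Prf1) and 0.34 to 0.59 (Ctsw). Shares of Cd3-rich cells ranged in WT from 31% to 40.3% (Lck), 4.5% to 12.6% (Cd8a), 21.0% to 35% (Prf1) and 40.2% to 48% (Ctsw), and in Utx-cKO from 40.5% to 44.7%, 2.63% to 10.1%, 17.7% to 19.5% and 46.6% to 51.9%.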

Other observations

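Some cells carried cathepsin W transcripts without CD3. Of the cells with at least 3 Ctsw transcripts, 24 of 70 in WT and 26 of 58 in Utx-cKO had no Cd3 transcript, and 7 and 12 of these lay near keratinocytes. The adaptor gene Tyrobp, used by natural killer and myeloid cells, was found in 13 and 15 of them, and Fcer1g, another such adaptor gene, in 18 and 10. The Tyrobp level of these cells was 9555 CPM (6057 to 14338) in WT, and in Utx-cKO it was 12077 CPM (7377 to 18652). In Ctsw-rich cells with Cd3 it was at 2354 CPM (1216 to 4112) and 1299 CPM (354 to 3325). Gzma was in 9 of the 24 WT cells, with 46 transcripts, and in 1 of the 26 Utx-cKO cells, with 1 transcript. Cd8a was in 2 and 0 of them. Median depths were 92 and 51 transcripts, against 92 and 84 in the Ctsw-rich cells with Cd3. Whether Cd3 went undetected in the cells without it was not tested. These cells were singled out after their values were seen.

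Blk had 627 CPM (359 to 1019) in near and 5467 CPM (3715 to 7761) in far Cd3-rich cells of WT, from 16 and 31 transcripts. In Utx-cKO it had 1528 CPM (835 to 2563) and 5972 CPM (3414 to 9699). Fyn, a kinase gene of the Src family, had 1450.4 and 6702 CPM in WT and 1528 and 10825 CPM in Utx-cKO. Ltb had 784 and 3175 CPM in WT and 2619 and 5599 CPM in Utx-cKO. The 3 genes were higher far from keratinocytes in both sections, and they were chosen after their values were seen.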
